A study of Mus musculus with 8 samples.

Results

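The 10 genes described here, Kdr, Flt1, Tek, Tie1, Eng, Pecam1, Cdh5, Esam, Plvap and Emcn, encode receptors, junction proteins and surface proteins of vascular endothelial cells, the cells that line blood vessels. They were taken as every probe set that the platform annotation assigns to exactly 1 of them, which gave 15 of 45101 probe sets, and they are 10 of 18193 genes with such a probe set. All 10 genes passed the filter on low signals and are among the 14023 genes tested. Where a gene had several probe sets, the probe set with the highest mean signal over the arrays was used and the others are given by their range.

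Affymetrix arrays were run on colon and small intestine of C57BL/6 mice aged 110 days, 1 array for each of 8 groups. Tumours came from ACKR2-/-ApcMin/+ mice (ACKR2KO_ApcMin) and ApcMin/+ mice (ApcMin), and tissue without tumours came from ACKR2-/- mice (ACKR2KO) and wild-type mice (WT), none of which carried ApcMin. The ApcMin allele truncates the tumour suppressor Apc, and intestinal tumours arise spontaneously in its carriers. ACKR2, or D6, is a scavenger that takes up and degrades inflammatory CC chemokines. Each array held RNA pooled within a genotype and tissue, so no group had replicates and n = 1 array per group throughout. The labels name no tissue to which the ACKR2 loss was restricted, the number of mice per pool is not given in the sources used here, and the tumours of the small intestine were from ileum while no segment is given for its non-tumour tissue.

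Endothelial cells respond to vascular endothelial growth factors through the receptor tyrosine kinases encoded by Kdr and Flt1, and to angiopoietins through the receptor encoded by Tek, with the related protein of Tie1 alongside it. Their contacts are held by VE-cadherin (Cdh5), PECAM-1 (Pecam1) and ESAM (Esam), and signals of the TGF-beta family are passed on with the help of the co-receptor endoglin (Eng). In intestine the fenestrated capillaries beneath the epithelium carry diaphragms built from PLVAP (Plvap), and endomucin (Emcn) is a sialoglycoprotein of capillary and venous endothelium.

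Promoter windows of 300 bases, from 250 bases before to 50 bases after a RefSeq start on mouse build GRCm38.p6, were at hand for 6 of the 10 genes, Kdr, Flt1, Tek, Tie1, Emcn and Eng. The start used equals the outer end of the gene as positioned here for Tie1 and Eng, and lies 16 bases inside the gene for Emcn, 203 for Tek, 427 for Flt1 and 617 for Kdr, so the window of Flt1 is wholly inside the gene. The promoters of 4 of them are shown because their genes were measured together here and each holds the letters AGGAAG or their reverse complement CTTCCT, a core that ETS-family factors bind, in capitals.
Flt1: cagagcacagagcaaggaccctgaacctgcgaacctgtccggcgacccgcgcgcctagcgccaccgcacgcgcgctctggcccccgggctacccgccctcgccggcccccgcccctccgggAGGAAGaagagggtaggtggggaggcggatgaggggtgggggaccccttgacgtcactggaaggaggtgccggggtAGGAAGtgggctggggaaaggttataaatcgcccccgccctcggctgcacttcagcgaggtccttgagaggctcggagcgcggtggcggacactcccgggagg
Tie1: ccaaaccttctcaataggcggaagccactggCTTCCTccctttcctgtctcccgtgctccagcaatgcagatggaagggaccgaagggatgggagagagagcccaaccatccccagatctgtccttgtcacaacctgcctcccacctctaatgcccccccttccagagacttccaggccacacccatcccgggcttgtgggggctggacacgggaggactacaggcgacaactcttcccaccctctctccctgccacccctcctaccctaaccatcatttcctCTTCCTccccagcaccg
Emcn: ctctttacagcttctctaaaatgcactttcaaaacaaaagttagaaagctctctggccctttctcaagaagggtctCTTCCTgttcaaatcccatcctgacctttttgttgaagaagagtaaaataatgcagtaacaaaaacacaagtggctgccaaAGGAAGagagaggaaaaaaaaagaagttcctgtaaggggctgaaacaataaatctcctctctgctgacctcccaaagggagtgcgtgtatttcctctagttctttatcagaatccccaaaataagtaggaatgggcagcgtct
Eng: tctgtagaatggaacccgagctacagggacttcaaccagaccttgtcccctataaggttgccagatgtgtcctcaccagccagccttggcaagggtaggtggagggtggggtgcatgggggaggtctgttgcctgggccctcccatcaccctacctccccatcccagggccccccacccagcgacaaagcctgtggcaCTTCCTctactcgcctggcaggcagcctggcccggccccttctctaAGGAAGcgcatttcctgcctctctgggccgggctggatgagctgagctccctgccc
These windows lie at chr5:147725962-147726261 on the minus strand for Flt1, chr4:118489800-118490099 on the minus strand for Tie1, chr3:137340828-137341127 on the plus strand for Emcn and chr2:32646345-32646644 on the plus strand for Eng, and each is written 5′ to 3′ in the direction of its gene. Each of the 4 promoters held 2 matches. On either strand the 6-letter motif was in 4 of the 6 promoters and in 35.1% of 27025 mouse promoters of the same length. AGATAA, bound by GATA factors, was in 1 of the 6 (Tek) and in 11.4% of all promoters, and ACAAAG, bound by SOX factors, was in 2 of the 6 (Tek and Eng) and in 18.7%. A match in such a window is a description of the letters and was not tied to any value below.

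Signals are MAS5 intensities on a linear scale, with each array scaled to the same trimmed mean, and levels of different genes are not comparable. Signals below 64.1, the floor, were set to it before log2 was taken, so a difference from a signal under the floor is understated. Differences come from 1 limma model over all 8 arrays, given on the log2 scale as the difference ± its standard error (SE). The threshold for a call was 0.05 after Benjamini-Hochberg adjustment over all 14023 genes, with two-sided tests. With 1 pool per group, the SE rests on how far the ACKR2 difference of a gene departed between colon and small intestine, with 2 residual degrees of freedom, and on the spread over all genes toward which limma draws it, with 4.16 prior degrees of freedom, and p-values describe these arrays and not mice.

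Several properties of the arrays touch what follows. WT small intestine went partly against its label: the colon gene Car1 had a signal of 18860 there, against 62.6 in ACKR2KO small intestine, and Aqp8 had 958 against 105, while Hoxb13 had 1.23 and the ileal gene Fabp6 27970. Median signal averaged 92.4 in the 4 ACKR2-deficient arrays and 123 in the 4 ACKR2-intact arrays. The ratio of 3' to 5' signal of Actb averaged 1.32 in the ACKR2-deficient and 1.15 in the ACKR2-intact arrays. Each had p = 0.0286 (exact two-sided permutation test, adjusted p = 0.0429 over 3 measures). That is the smallest p this test can give, and it shuffled arrays without regard to their tissue and tumour status. The Gapdh 3'/5' ratio averaged 0.806 in ACKR2-deficient and 0.843 in ACKR2-intact arrays (exact two-sided p = 0.514). Xist, expressed in females, had 77.9 and 127 in the ACKR2KO_ApcMin tumours and at least 2818 elsewhere, and the Y-linked Eif2s3y was at 2.92 and 2.66 on the WT arrays of colon and small intestine, with 888 or more elsewhere. The 3 Ackr2 probe sets had signals of 1.10 to 153 in ACKR2-deficient arrays and 2.16 to 116 in ACKR2-intact arrays, and since the position of the deletion is not given in the sources used here, they do not check the genotype.

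Kdr (chr5:75932827-75979072 on GRCm38.p6, as for all gene positions here) encodes VEGFR2, the main signalling receptor for VEGF-A. Kdr signals in colon were 175 in ACKR2KO_ApcMin tumours and 255 in ApcMin tumours, and 140 in ACKR2KO tissue and 262 in WT tissue. Kdr signals in small intestine were 147 in ACKR2KO_ApcMin tumours and 321 in ApcMin tumours, and 227 in ACKR2KO tissue and 285 in WT tissue. The 4 ACKR2-deficient arrays held the 4 lowest signals, and the groups of ACKR2-deficient and ACKR2-intact arrays did not overlap. This was so on signals as deposited and was lost after the other scalings described below. Kdr varied least of the genes whose signals were above the floor on every array, with its highest signal 2.30 times its lowest. Its tumour differences had mixed signs, at 0.15 ± 0.29 in colon and -0.23 ± 0.29 in small intestine (limma adjusted p = 0.773 and 0.724).

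Flt1 (chr5:147561604-147726438) encodes VEGFR1, which binds VEGF-A, VEGF-B and placental growth factor and whose soluble form traps these ligands. Flt1 signals in colon were 195 in ACKR2KO_ApcMin tumours and 264 in ApcMin tumours, and 123 in ACKR2KO tissue and 203 in WT tissue. Flt1 signals in small intestine were 175 in ACKR2KO_ApcMin tumours and 357 in ApcMin tumours, and 75.8 in ACKR2KO tissue and 104 in WT tissue. Both tumour arrays of the small intestine were above both of its non-tumour arrays, which held for 2 of the 10 genes against 23.2% of all genes, and in each tissue the tumour pool was higher than the non-tumour pool of the same ACKR2 genotype. The other 3 probe sets of Flt1 had signals of 90.9 to 295, 26.1 to 204 and 31.0 to 144. They did not all rank the arrays as the chosen one did, since the probe set with 90.9 to 295 had 182 in ApcMin colon tumours and 228 in WT colon.

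Tek (chr4:94739086-94874976) encodes TIE2, the receptor for angiopoietins. Tek signals in colon were 86.2 in ACKR2KO_ApcMin tumours and 178 in ApcMin tumours, and 197 in ACKR2KO tissue and 215 in WT tissue. Tek signals in small intestine were 70.3 in ACKR2KO_ApcMin tumours and 133 in ApcMin tumours, and 90.1 in ACKR2KO tissue and 196 in WT tissue. The lowest signals were those of the ACKR2KO_ApcMin tumours, and every tumour pool was below the non-tumour pool of its tissue and ACKR2 genotype.

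Tie1 (chr4:118471191-118489849) encodes a receptor related to TIE2 that modulates its signalling. Tie1 signals in colon were 4.77 in ACKR2KO_ApcMin tumours and 68.5 in ApcMin tumours, and 82.3 in ACKR2KO tissue and 124 in WT tissue. Tie1 signals in small intestine were 15.3 in ACKR2KO_ApcMin tumours and 67.4 in ApcMin tumours, and 60.2 in ACKR2KO tissue and 112 in WT tissue. It was the gene nearest the floor, with 5 of 8 arrays above 64.1. Both ACKR2KO_ApcMin tumour signals and that of ACKR2KO small intestine were below the floor, and the WT arrays were the highest.

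Eng (chr2:32646595-32682669) encodes endoglin, a co-receptor for BMP9 and other ligands of the TGF-beta family. Eng signals in colon were 203 in ACKR2KO_ApcMin tumours and 466 in ApcMin tumours, and 209 in ACKR2KO tissue and 331 in WT tissue. Eng signals in small intestine were 130 in ACKR2KO_ApcMin tumours and 259 in ApcMin tumours, and 130 in ACKR2KO tissue and 312 in WT tissue. The highest ACKR2-deficient signal was below the lowest ACKR2-intact one. A lower probe set of Eng ranged from 29.4 to 252.

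Pecam1 (chr11:106654213-106715281) encodes PECAM-1, also known as CD31, a protein of endothelial contacts that leukocytes and platelets also carry. Pecam1 signals in colon were 181 in ACKR2KO_ApcMin tumours and 312 in ApcMin tumours, and 292 in ACKR2KO tissue and 429 in WT tissue. Pecam1 signals in small intestine were 138 in ACKR2KO_ApcMin tumours and 263 in ApcMin tumours, and 95.5 in ACKR2KO tissue and 228 in WT tissue. In colon each tumour pool was below the non-tumour pool of its own ACKR2 genotype, and the ApcMin tumours were above the ACKR2KO tissue. ACKR2KO small intestine had the lowest signal and WT colon the highest, 4.50 times as high.

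Cdh5 (chr8:104101613-104144504) encodes VE-cadherin, the adhesion protein of endothelial adherens junctions. Cdh5 signals in colon were 145 in ACKR2KO_ApcMin tumours and 271 in ApcMin tumours, and 210 in ACKR2KO tissue and 309 in WT tissue. Cdh5 signals in small intestine were 224 in ACKR2KO_ApcMin tumours and 451 in ApcMin tumours, and 142 in ACKR2KO tissue and 209 in WT tissue. Signals of both small-intestinal tumour pools were above those of both non-tumour pools, as for Flt1, whereas in colon each tumour pool was below the non-tumour pool of its ACKR2 genotype. The other probe set of Cdh5 stayed close to the floor, at 21.1 to 78.7.

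Esam (chr9:37528089-37538319) encodes an adhesion molecule of endothelial tight junctions that platelets also carry. Esam signals in colon were 285 in ACKR2KO_ApcMin tumours and 570 in ApcMin tumours, and 443 in ACKR2KO tissue and 689 in WT tissue. Esam signals in small intestine were 191 in ACKR2KO_ApcMin tumours and 502 in ApcMin tumours, and 227 in ACKR2KO tissue and 492 in WT tissue. The 4 ACKR2-deficient arrays were all below the 4 ACKR2-intact arrays, and WT colon was the highest.

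Plvap (chr8:71497753-71511806) encodes the protein that forms the diaphragms of fenestrae and caveolae. Plvap signals in colon were 251 in ACKR2KO_ApcMin tumours and 936 in ApcMin tumours, and 417 in ACKR2KO tissue and 881 in WT tissue. Plvap signals in small intestine were 193 in ACKR2KO_ApcMin tumours and 702 in ApcMin tumours, and 142 in ACKR2KO tissue and 980 in WT tissue. Its range was the widest of the 10 genes after flooring, with the highest signal 6.91 times the lowest. All 4 ACKR2-intact arrays were at 702 or more and all 4 ACKR2-deficient arrays at 417 or less, and within these sets the tumour and non-tumour arrays overlapped.

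Emcn (chr3:137341062-137431069) encodes endomucin, which limits leukocyte adhesion to endothelium. Emcn signals in colon were 147 in ACKR2KO_ApcMin tumours and 320 in ApcMin tumours, and 384 in ACKR2KO tissue and 343 in WT tissue. Emcn signals in small intestine were 30 in ACKR2KO_ApcMin tumours and 173 in ApcMin tumours, and 153 in ACKR2KO tissue and 301 in WT tissue. It was the only one of the 10 genes with a pair in which the ACKR2-deficient array was higher, non-tumour colon. Small-intestinal ACKR2KO_ApcMin tumours were below the floor, and the other 7 arrays were above it.

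**Figure D1:**
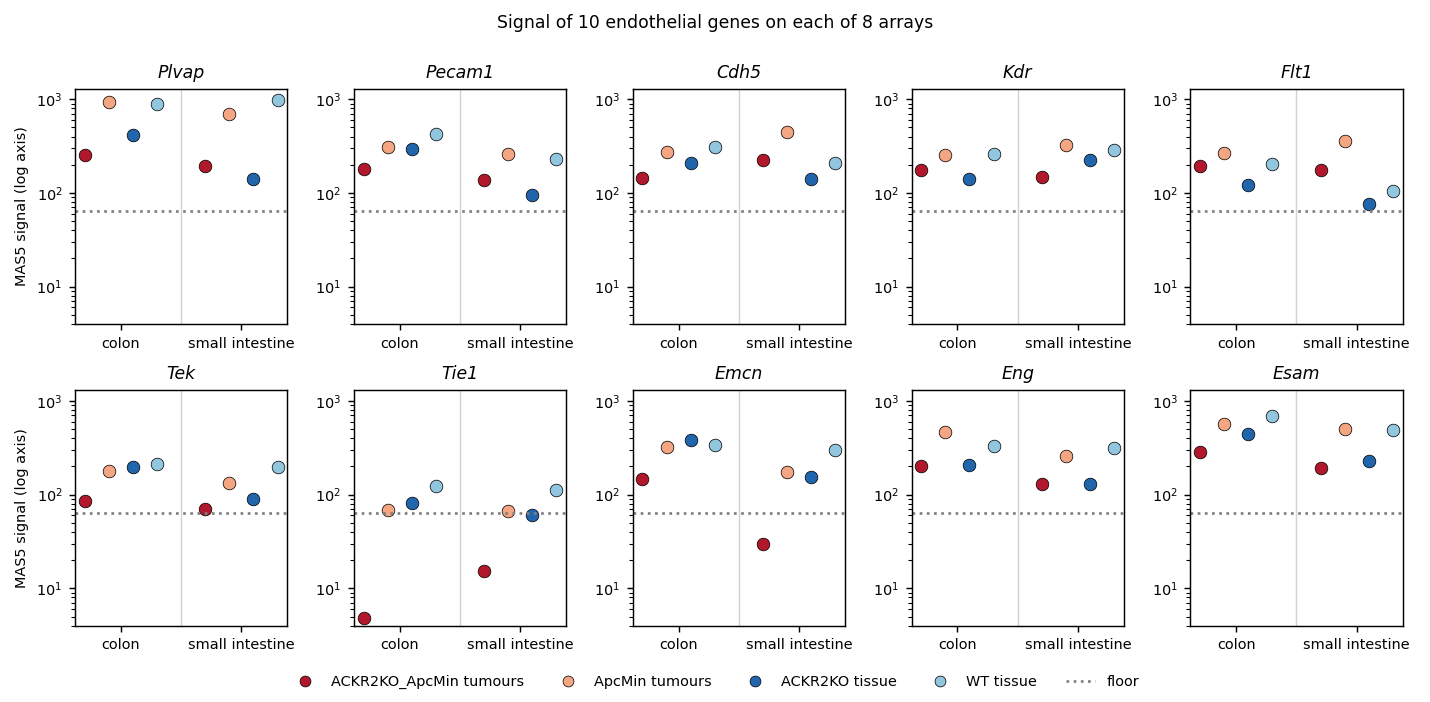
MAS5 signal of each gene (log axis) on each of the 8 arrays, with colon left and small intestine right in every panel and 1 point per array. Dark points, the ACKR2-deficient pools, lie below the light points of the ACKR2-intact pools for Plvap, Kdr, Eng and Esam, and Tie1 reaches 4.77 under the dotted floor of 64.1.

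ACKR2-deficient pools were set against ACKR2-intact pools to ask how loss of the receptor relates to endothelial transcripts with and without tumours. Over the 10 genes and 4 pairs of arrays, 39 of 40 differences were below 0, lower in the ACKR2-deficient pool. In each pair 47% to 56% of all genes were lower. After quantile, median and loess scaling, 34, 32 and 35 of the 40 were below 0. The 10 genes share the same arrays and are not replicates. In tumours the log2 differences, ACKR2KO_ApcMin minus ApcMin, were below 0 for all 10 genes, with a median of -0.97 against -0.033 over all genes. In non-tumour tissue the differences, ACKR2KO minus WT, were also below 0 for all 10, with a median of -0.66 against -0.023 over all genes. In the limma model with separate ACKR2 effects for tumours and non-tumour tissue, 0 of the 10 genes passed the threshold in either comparison. In bulk RNA fewer endothelial cells and less of these RNAs per cell cannot be told apart.

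Plvap, which lines fenestrae, had the largest differences of the 10 genes in both settings when signals were floored; with no floor other than a signal of 1, Tie1 had -2.99 in tumours. Its log2 difference was -1.88 ± 0.40 in tumours, a 3.68-fold lower signal in ACKR2KO_ApcMin than in ApcMin, and -1.93 ± 0.40 in non-tumour tissue, 3.82-fold lower in ACKR2KO than in WT (limma adjusted p = 0.163 and 0.0679). By pair it was -1.90 in colon tumours, -1.86 in small-intestinal tumours, -1.08 in non-tumour colon and -2.79 in non-tumour small intestine. On signals as deposited, Plvap was the only one of the 10 genes at least 2-fold lower in 4 of 4 pairs, against 0.335% of all genes. This did not hold after the other scalings described below. Its highest pair difference was then -0.975 with quantile, -0.87 with loess and -0.45 with median scaling, short of 2-fold. Without WT small intestine the non-tumour difference of Plvap was that of colon, -1.08.

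In tumours Emcn followed at -1.28 ± 0.34, then Esam at -1.20 ± 0.25 and Eng at -1.09 ± 0.28 (limma adjusted p = 0.196, 0.162 and 0.186). Tek (-0.98), Cdh5 (-0.96), Pecam1 (-0.86), Kdr (-0.84) and Flt1 (-0.74) had adjusted p between 0.19 and 0.279. Tie1 had -0.08, with both ACKR2KO_ApcMin signals at the floor. With no floor other than a signal of 1, the -2.99 of Tie1 was not called (adjusted p = 0.117). An unadjusted p under 0.05 was given to 9 of the 10 genes in tumours, against 15.6% of all genes, and to 5 of 10 in non-tumour tissue, against 24.8%. Under the other scalings described here these counts were 5 or 6 in tumours, against 14.9% to 21.4% of all genes. In non-tumour tissue they were 1 or 2, against 25.2% to 41.1% of all genes. In tumours 0% of all genes were called higher and 0.0357% lower.

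In non-tumour tissue Plvap was followed by Eng at -0.97 ± 0.28, Pecam1 at -0.91 ± 0.28, Esam at -0.87 ± 0.25 and Tie1 at -0.70 ± 0.18 (limma adjusted p = 0.105, 0.122, 0.109 and 0.0863). Tek, Kdr, Flt1 and Cdh5 lay between -0.62 and -0.56, and Emcn was at -0.41 ± 0.34 with adjusted p = 0.507. Of all genes, 0.128% were called higher and 0.556% lower, or 18 and 78 genes. Other scalings between arrays moved this comparison. After median centring 3600 genes were called higher and 173 lower in ACKR2KO tissue, after quantile normalization 5 and 21, and after cyclic loess 1 and 3. With median centring the median of all genes was 0.44, and that of the 10 genes was -0.13. The median of the 10 genes was -0.20 after quantile normalization, against 0.12 over all genes, and -0.22 after cyclic loess, against 0.10. Emcn was above 0 after median centring (0.14) and cyclic loess (0.02), the other 9 stayed below 0 under each of these scalings, and Plvap was at -1.38 to -1.71 with adjusted p of 0.0583 to 0.0889. In tumours the median of the 10 genes was between -0.68 and -0.72 under these scalings, with all 10 below 0, and that of all genes reached 0.20 after median centring.

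Without WT small intestine the median of the 10 genes in non-tumour tissue was -0.61, and Emcn was at 0.16, the value of colon alone. The ACKR2 difference in tumours minus that in non-tumour tissue called 0 of the 10 genes, at adjusted p of 0.617 or more, against 0% of all genes higher and 0.00713% lower. For Emcn it was -0.87 (95% interval -2.03 to 0.29), for Plvap 0.05 (-1.34 to 1.44) and for Tie1 0.61 (0.01 to 1.22). The Tie1 value rests on the floor, since with no floor other than a signal of 1 its ACKR2 difference was -2.99 in tumours and -0.74 in non-tumour tissue, the opposite order.

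**Figure D2:**
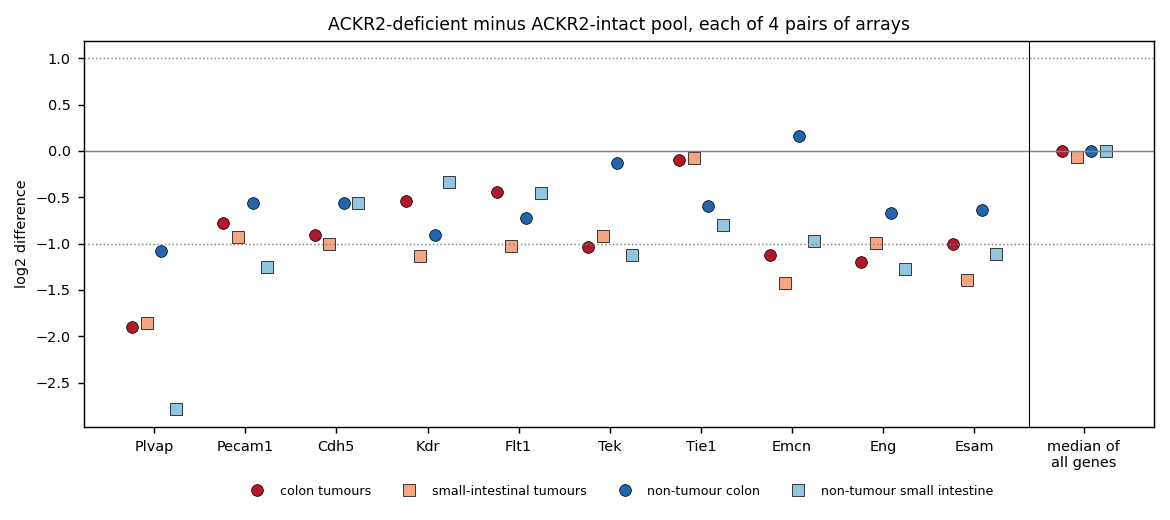
Log2 difference of each gene in the 4 pairs of arrays that differ in ACKR2 genotype, ACKR2-deficient minus ACKR2-intact, with the median of all 14023 genes in the same pair at the right. Circles are colon and squares small intestine, red shades tumours and blue shades non-tumour tissue. On signals as deposited, 39 of the 40 points for the 10 genes are below 0.

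Counting pairs without a model, 9 of the 10 genes were lower in 4 of 4 ACKR2 pairs, against 19.1% of all genes. The exception was Emcn. On signals as deposited, Plvap, Kdr, Eng and Esam, 4 of the 10, had all 4 ACKR2-deficient arrays below all 4 ACKR2-intact arrays, against 4.83% of all genes. Without WT small intestine these counts were 9 of 10 in 3 of 3 pairs, against 21.9%, and 6 of 10 with no overlap, against 6.8%. Because the median signal of the arrays moved with ACKR2 genotype, the pairs were also counted after other scalings between arrays. Quantile normalization left 5 of 10 genes lower in 4 of 4 pairs (13.3% of all genes), cyclic loess 6 (12.9%) and median centring 3 (3.74%). The separation of all ACKR2-deficient from all ACKR2-intact arrays was not counted again. Kdr lost it under each, with a highest pair difference of 0.04 after quantile, 0.06 after loess and 0.135 after median scaling. Median centring moved the median difference of all genes over the pairs to 0.301, against -0.007 as deposited, and the median of the 10 genes to -0.57, against -0.93. Plvap, Eng and Esam were lower in 4 of 4 pairs under all 4 scalings. After median centring the highest pair difference was near 0 for Eng (-0.03) and Esam (-0.005). Plvap had mean differences of -1.91 as deposited, and -1.73, -1.71 and -1.49 under quantile, loess and median scaling.

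**Figure D3:**
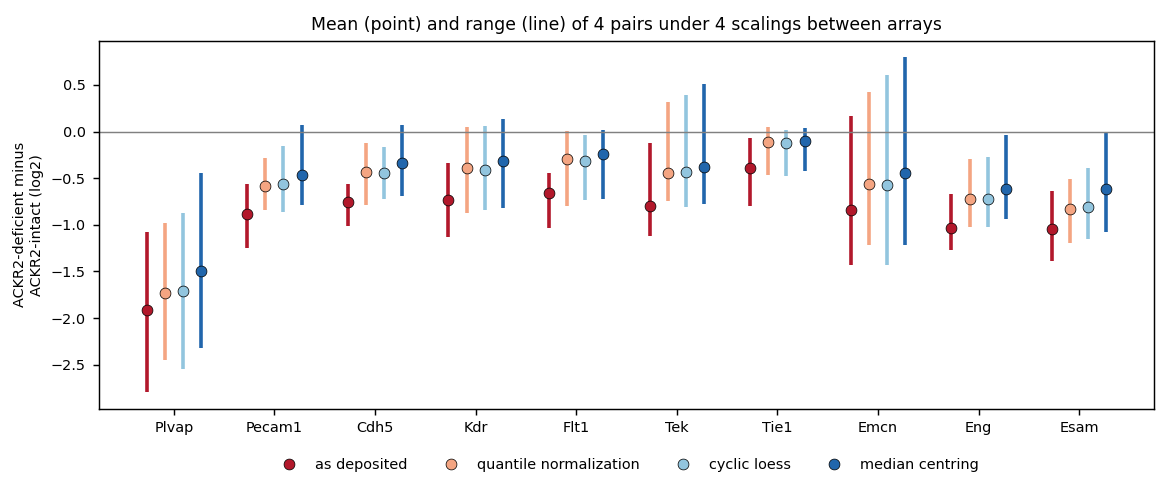
Mean (point) and range (line) of the 4 ACKR2 pair differences of each gene, ACKR2-deficient minus ACKR2-intact on the log2 scale, under 4 scalings between arrays. The ranges of Plvap, Eng and Esam stay below 0 under every scaling shown, while that of Emcn crosses 0 under each. With median centring the range of Eng ends at -0.03 and that of Esam at -0.005.

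Where tumours and non-tumour tissue were given 1 shared ACKR2 effect, which leaves 3 residual degrees of freedom, 4 of the 10 genes were called, all lower in ACKR2-deficient pools, against 3.89% of all genes called lower and 1.86% higher. Plvap fell by 1.91 ± 0.27, Esam by 1.04 ± 0.18, Eng by 1.03 ± 0.19 and Pecam1 by 0.88 ± 0.19 on the log2 scale (limma adjusted p = 0.0291, 0.0354, 0.0369 and 0.0464). Tek (-0.80), Cdh5 (-0.76), Flt1 (-0.66), Kdr (-0.73), Emcn (-0.84) and Tie1 (-0.39) had adjusted p between 0.0572 and 0.172. With the same model, Plvap and Esam passed after quantile normalization and Plvap alone after median centring or cyclic loess. All genes were called in the numbers of 261 higher and 545 lower as deposited, 282 and 355 after quantile normalization, 135 and 180 after cyclic loess, and 3149 and 184 after median centring, where the median of all genes was 0.31. None of the 10 passed when any 1 array was left out, although 8 or 9 of them had an unadjusted p under 0.05, against 16.2% to 25.4% of all genes, and then 0 genes in all were called. Leaving out WT small intestine gave -1.61 for Plvap, -1.01 for Esam, -0.95 for Eng and -0.76 for Pecam1 (adjusted p = 0.211, 0.22, 0.221 and 0.234). In each of the 4 ACKR2 pairs the ACKR2-deficient pool had less Xist and more Eif2s3y. Xist was at 77.9 against 2954 in colon tumours and 127 against 4827 in small-intestinal tumours. In non-tumour tissue it was at 4522 against 9809 in colon and 2818 against 7807 in small intestine. The part of signal distribution, Actb 3'/5' ratio and sex of the pools in the ACKR2 differences was not tested.

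Other genes of endothelium, from a list of 30 of which 28 were tested, had a median ACKR2 difference of -0.66 in tumours and -0.52 in non-tumour tissue. In tumours 26 of 28 were below 0 and in non-tumour tissue 25 of 28, none of them called, and 18 of 28 were lower in 4 of 4 pairs, against 19.1% of all genes. After quantile, median and loess scaling, 24 of 29, 22 of 28 and 23 of 28 were below 0 in tumours. The same counts in non-tumour tissue were 17 of 29, 14 of 28 and 18 of 28. Under the other scalings the median was -0.44, -0.37 and -0.46 in tumours and -0.18, -0.02 and -0.18 in non-tumour tissue after quantile, median and loess scaling. Vwf, which encodes von Willebrand factor, was at -1.73 ± 0.29 in tumours (limma adjusted p = 0.14). Cd93 followed at -1.59 in tumours, where its other probe sets ran from -1.11 to 0.13. Sox18, an endothelial transcription factor, was at -1.54 ± 0.41 in tumours and -1.27 ± 0.41 in non-tumour tissue (limma adjusted p = 0.195 and 0.128). Egfl7, a protein that endothelial cells secrete, was at -1.17 ± 0.24 in non-tumour tissue (adjusted p = 0.0677).

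The ligands of these receptors had ACKR2 medians of -0.31 in tumours and -0.23 in non-tumour tissue over 9 genes, with 0 called. Vegfb, a ligand of VEGFR1, was at -1.33 ± 0.24 in tumours and -1.13 ± 0.24 in non-tumour tissue (limma adjusted p = 0.15 and 0.0687). Vegfa, the main ligand of VEGFR2, was at -0.68 ± 0.19 in tumours and -0.73 ± 0.19 in non-tumour tissue (limma adjusted p = 0.207 and 0.0925). Angptl4 went the other way, at 0.39 in tumours and 1.13 in non-tumour tissue. Vegfd was at -0.92 in tumours and 0.69 in non-tumour tissue, where its other probe sets had 0.52 and -0.61. Above 0 were 3 of the 9 genes in tumours and 4 in non-tumour tissue. Co-receptors and partners in these pathways, 14 genes, had medians of -0.46 in tumours and -0.61 in non-tumour tissue, with 0 called. Tip-cell genes, which mark sprouting vessels, had -0.44 in tumours and -0.41 in non-tumour tissue over 11 genes, arterial genes -0.18 and -0.15 over 6, and venous and adhesion genes -0.39 and -0.58 over 8, again with 0 called. These medians moved with scaling: after median centring those in non-tumour tissue were 0.22 for ligands, 0.13 for tip-cell and 0.40 for arterial genes, and -0.06 for co-receptors and -0.07 for venous and adhesion genes, and in tumours the arterial median was 0.11.

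Markers of smooth muscle, pericytes, fibroblasts and lymphatic endothelium also had medians below 0 in tumours. The smooth muscle list does not separate muscle of vessels from muscle of the gut wall. Smooth muscle genes had a median of -1.90 in tumours, below 0 for 10 of 10, and their summed signal was 9834 in colon and 12570 in small intestine of ACKR2KO_ApcMin tumours, against 36200 and 27170 in the same tissues of ApcMin tumours. Synm, the intermediate filament gene of muscle, fell by 3.41 ± 0.27 on the log2 scale (limma adjusted p = 0.0454). Pericyte genes had a median of -0.98 over 8 genes, and Abcc9, a channel subunit of pericytes, fell by 2.11 ± 0.17 (adjusted p = 0.0454), with summed signals of 2704 in colon and 2858 in small intestine of ACKR2KO_ApcMin tumours, against 7600 and 7423 in those of ApcMin tumours. Fibroblast genes had -1.18 over 8 genes, with sums of 21350 and 6022 in ACKR2KO_ApcMin tumours of colon and small intestine, against 37570 and 19700 in ApcMin tumours. Lymphatic endothelial genes had -0.87 and 7 of 7 below 0. Neither Synm nor Abcc9 was called after quantile, median or loess scaling, at -3.22 to -3.42 for Synm and -1.82 to -2.02 for Abcc9 with adjusted p of 0.0683 to 0.0882, and the medians of these 4 lists stayed below 0.

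In non-tumour tissue the medians were -0.16 for smooth muscle, -0.23 for pericytes, -0.12 for lymphatic endothelium and -0.89 for fibroblasts. The collagen gene Col1a1 fell by 2.23 ± 0.23 there (limma adjusted p = 0.0378), and was called after quantile and median scaling but not after cyclic loess (adjusted p = 0.0594). After median centring the medians were 0.39 for smooth muscle, 0.27 for pericytes and 0.39 for lymphatic endothelium, above 0, and -0.34 for fibroblasts. Summed smooth muscle signals were 116300 in colon and 69980 in small intestine of ACKR2KO mice, against 137500 and 65270 in WT mice, and the pericyte sums were 11600 and 18430 in the same tissues of ACKR2KO mice, against 12540 and 14330 in those of WT mice. Fibroblast sums were 40810 in colon and 14950 in small intestine of ACKR2KO mice, against 48040 and 22410 in WT mice. Epithelial genes had medians of 0.06 in tumours and 0.03 in non-tumour tissue, and macrophage genes -0.03 and -0.04, and the sign of each changed under at least 1 other scaling. No marker of these lists had a signal of 0, and Higd1b (pericytes) was under the floor on every array and Lmod1 (smooth muscle) on both ACKR2KO_ApcMin arrays. The part of these cells in the differences of the 10 genes was not tested.

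**Figure D4:**
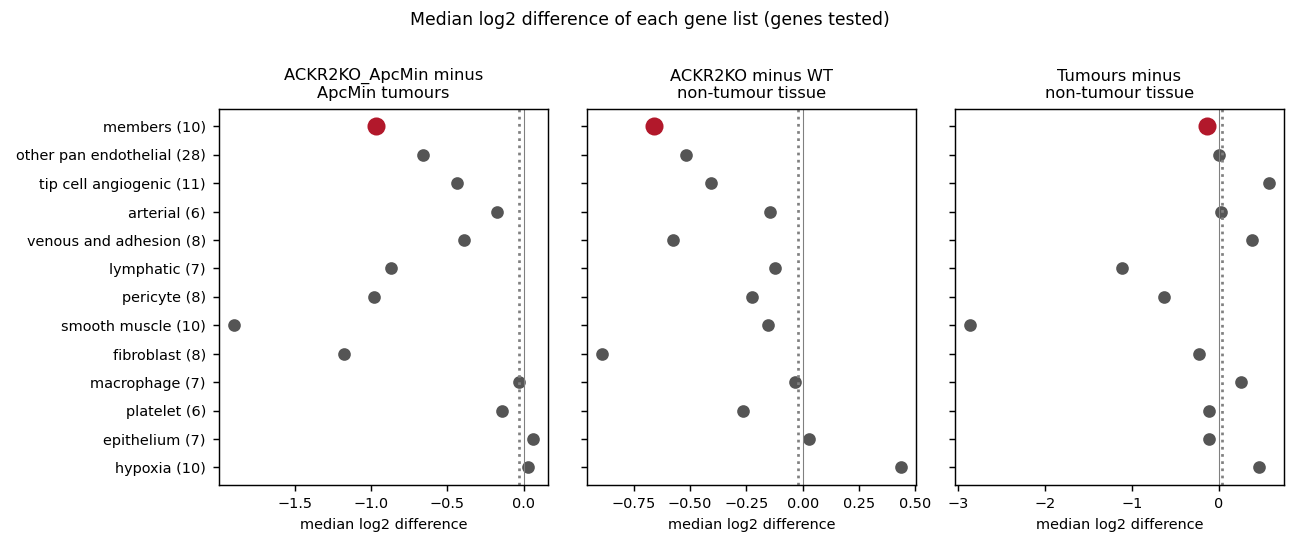
Median log2 difference of the 10 genes (red, labelled members) and of 12 other gene lists in 3 comparisons, with the number of genes tested in brackets and the median of all genes as a dotted line. The 10 genes lie at -0.97 in tumours and -0.66 in non-tumour tissue for ACKR2, and at -0.14 for tumours minus non-tumour tissue, where smooth muscle lies at -2.87.

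Tumours were set against tissue without tumours of the same ACKR2 genotype to ask how endothelial transcripts relate to tumour status. Averaged over tissues and genotypes, Flt1 rose and Tie1 and Emcn fell, and the other 7 genes did not pass the threshold. Of all genes, 13.1% were called higher and 12% lower, so 1 of 10 higher and 2 of 10 lower is near the share of genes in general. These were 1844 genes higher and 1679 lower, and after median centring 1329 and 1883. The median of the 10 genes was -0.14, against 0.033 over all genes.

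Flt1 rose by 1.01 ± 0.19 on the log2 scale, 2.01-fold (limma adjusted p = 0.015), and was higher in 4 of 4 pairs. Its pairs were 0.67 in ACKR2-deficient and 0.38 in ACKR2-intact colon, and 1.20 in ACKR2-deficient and 1.78 in ACKR2-intact small intestine. In small intestine alone it rose by 1.49 ± 0.27, 2.81-fold (adjusted p = 0.0411), where 2.77% of all genes were called higher and 1.2% lower (389 and 168 genes, and 254 and 220 after median centring). In colon alone the difference was 0.53 ± 0.27 (adjusted p = 0.209), and 0 of the 10 genes were called there, against 11% of all genes higher and 12.6% lower. The difference between the tissues was -0.97 ± 0.38, colon minus small intestine, and was not called (adjusted p = 0.245). The rise of Flt1 in small intestine rests on the chosen probe set, as the other 3 had 0.49, 0.80 and 0.58 with adjusted p of 0.435, 0.112 and 0.205. Averaged over tissues those 3 had 0.24, 0.37 and 0.48, none of them called.

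Emcn fell by 0.89 ± 0.24 on the log2 scale (limma adjusted p = 0.0423), with pair differences of -1.39 and -0.10 in ACKR2-deficient and ACKR2-intact colon, and -1.26 and -0.80 in ACKR2-deficient and ACKR2-intact small intestine. Without both ACKR2KO_ApcMin arrays it was at -0.45 and was not called (adjusted p = 0.507). Tie1 fell by 0.49 ± 0.12 (adjusted p = 0.036), with tumour signals at or just above the floor, and with no floor other than a signal of 1 it fell by 1.92. Tek was lower in 4 of 4 pairs, at -0.60 ± 0.21, and was not called (adjusted p = 0.0867). Lower in 4 of 4 pairs held for 2 of the 10 genes, Tek and Emcn, against 15.8% of all genes, and would hold for Tie1 on signals as deposited, which are tied at the floor in ACKR2-deficient small intestine, and higher in 4 of 4 for Flt1 alone, against 19.2%.

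**Figure D5:**
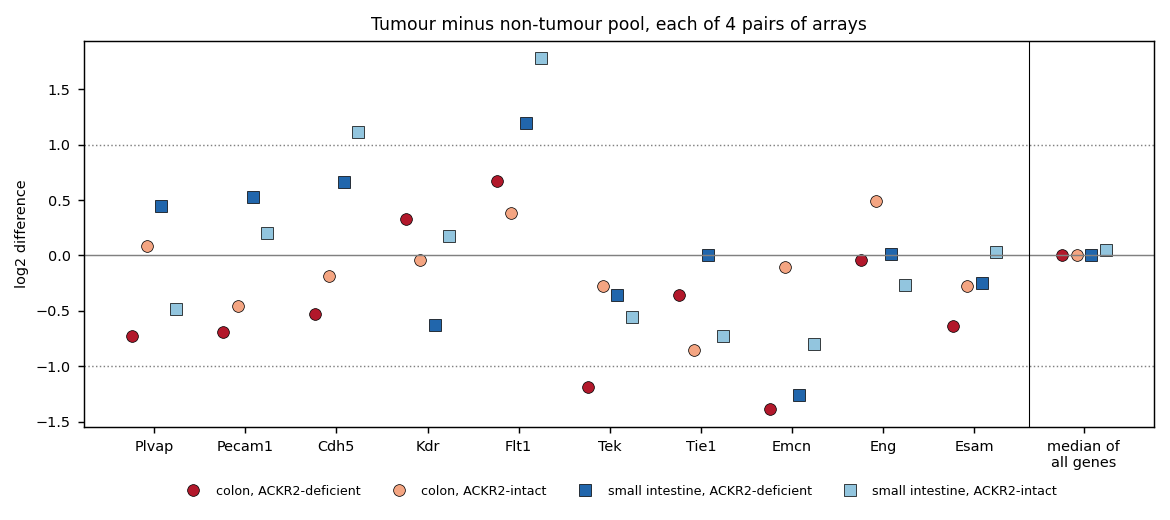
Log2 difference of each gene in the 4 pairs of arrays that differ in tumour status, tumour minus non-tumour within a tissue and ACKR2 genotype, with the median of all genes at the right. Circles are colon and squares small intestine, and Flt1 lies above 0 in every pair while Tek and Emcn lie below it.

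Pecam1 and Cdh5 had opposite signs in the tissues. The tumour difference of Cdh5 was -0.36 ± 0.24 in colon and 0.88 ± 0.24 in small intestine, and that of Pecam1 was -0.57 ± 0.28 in colon and 0.37 ± 0.28 in small intestine. The difference between tissues was -1.25 ± 0.34 for Cdh5 and -0.94 ± 0.40 for Pecam1, and neither was called (limma adjusted p = 0.134 and 0.273). None of the 10 genes was called in that comparison, against 0.735% of all genes higher and 1.52% lower (103 and 213 genes, and 111 and 103 after median centring), with 2 of the 10 at an unadjusted p under 0.05, against 19% of all genes. Eng, Esam, Kdr and Plvap had averaged tumour differences between -0.28 and 0.05, with adjusted p between 0.291 and 0.904.

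These calls rest on few arrays. Leaving out any 1 array left 0 of the 10 genes called in every comparison, with 2 to 5 at an unadjusted p under 0.05 in the averaged one, against 22% to 37.7% of all genes. Without WT small intestine Flt1 was at 0.94 in the averaged comparison and 1.36 in small intestine (adjusted p = 0.206 and 0.556), Emcn at -0.60 (0.233) and Tie1 at -0.43 (0.177). In all 4 pairs the tumour pool had less Xist and more Eif2s3y, and the part of sex in the tumour differences was not tested.

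Smooth muscle genes fell in tumours in 10 of 10 cases, and their median was -2.87, with Synm (-3.90), Myh11 (-3.81), Cnn1 (-3.37) and Smtn (-3.12) the most. Of 8 pericyte genes 4 fell, Rgs5 by 1.87, Abcc9 by 1.68, Kcnj8 by 1.27 and Cspg4 by 0.99. Of 7 lymphatic genes 5 fell and 1 rose: Lyve1, a hyaluronan receptor of lymphatic vessels, fell by 1.62, Mmrn1 by 1.61 and Nrp2 by 1.52, and Prox1, a transcription factor of lymphatic endothelium that intestinal tumour epithelium can also carry, rose by 3.60. The part of the lower muscle and pericyte signals in the tumour differences of the 10 genes was not tested.

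Other endothelial genes were called in both directions, with 4 of 28 higher and 3 lower, near the 13.1% and 12% of all genes. Their median was 0.001. Sox17 rose by 4.51, Ecscr by 2.44 and Palmd by 1.96 on the log2 scale (limma adjusted p = 0.00153, 0.00356 and 0.0024). Cd34, a sialomucin of capillary endothelium and of fibroblasts, fell by 1.48 (limma adjusted p = 0.00778). Sox17 signals were 1484 or more in every tumour pool and 145 or less in every non-tumour pool. Which cells carried these RNAs cannot be told from bulk RNA. Among the ligands Pgf, the placental growth factor that binds VEGFR1, rose by 1.23 ± 0.34, and Vegfb and Vegfd fell by 1.18 ± 0.17 and 0.95 ± 0.19 (adjusted p = 0.0465, 0.00708 and 0.0193). Of 14 co-receptors and partners 1 rose, Tgfbr2 by 0.79, and 2 fell, Nrp2 by 1.52 and Flt4, the receptor VEGFR3, by 0.89. The rise of Tgfbr2 rests on the chosen probe set, as a lower one was at -0.345. Of 11 tip-cell genes 5 rose and 2 fell: Cxcr4 rose by 1.64, Cd276 by 1.35 and Aplnr by 1.20, and Mcam fell by 1.49. A lower probe set of Aplnr was at 0.07. Cxcr4, which leukocytes also carry, had 0.35 in colon (adjusted p = 0.349) and 2.93 in small intestine (adjusted p = 0.00489), and its difference between tissues of -2.58 was called (adjusted p = 0.0271). Of 8 venous and adhesion genes Icam1 rose by 2.01 and Madcam1, the mucosal addressin, by 1.20, and Nr2f2 fell by 0.77. Of 6 arterial genes Hey1 alone was called, higher by 1.10.

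Colon was set against small intestine to describe the tissues. In non-tumour tissue Pecam1 was higher in colon by 1.26 ± 0.28, 2.40-fold (limma adjusted p = 0.0269), in both ACKR2 genotypes, at 1.61 in ACKR2KO and 0.92 in WT. It was the only one of the 10 genes called, against 13% of all genes called higher and 8.4% lower, and 9 of the 10 had a higher fitted value in colon, with a median of 0.67 against 0.11 over all genes. Kdr was the exception at -0.41 ± 0.29. Flt1 followed at 0.83 ± 0.27 and Esam at 0.72 ± 0.25, which were not called (adjusted p = 0.0769 and 0.0954). Without WT small intestine, the array with the Car1 signal, Pecam1 was at 1.61 and was not called (adjusted p = 0.201).

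In tumours 0 of the 10 genes were called between tissues, against 5.76% of all genes higher in colon and 7.36% lower (808 and 1032 genes, and 1023 and 808 after median centring). Emcn had the largest difference, 1.04 ± 0.34, and Cdh5 was at -0.68 ± 0.24, lower in colon tumours (adjusted p = 0.1 and 0.124). An unadjusted p under 0.05 was given to 3 of the 10 genes, against 30.3% of all genes. Over the 4 tissue pairs, 5 of the 10 genes were higher in colon in 4 of 4, against 25.5% of all genes, and 0 of 10 were lower in 4 of 4, against 15.4%.

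Among themselves the 10 genes followed each other to different degrees over the 8 arrays, which share tissue, tumour status, ACKR2 genotype and signal distribution. The sex markers Xist and Eif2s3y also moved with ACKR2 genotype on these arrays. Pearson's r of a gene with the mean log2 profile of the other 9 was 0.986 for Esam, 0.957 for Plvap, 0.91 for Eng and 0.909 for Pecam1, and 0.383 for Flt1. Over pairs of genes r had a median of 0.636, with the highest for Emcn with Tek (0.944) and the lowest for Tie1 with Flt1 (-0.16). The genes outside the 10 whose profile was most like their mean over the 8 arrays were Chpf2 (r = 0.991), 2310022B05Rik (0.987), Firre (0.985), Ankrd16 (0.982), Rbak (0.979), Sox18 (0.978), Dchs1 (0.977), Sik3 (0.977), Ubl7 (0.975) and Fam168b (0.973). Of these, Sox18 is also in the list of other endothelial genes. Sox18 signals were 135 in colon and 54.8 in small intestine of ACKR2KO_ApcMin tumours, against 299.9 and 246 in ApcMin tumours, and 232 and 68.6 in ACKR2KO tissue, against 341 and 272 in WT tissue. Chpf2, which encodes a chondroitin polymerizing factor, ran from 155 in ACKR2KO small intestine to 439 in WT colon.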

How the data were processed

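Per the labels, RNA was extracted with Trizol and RNeasy columns, combined into pools and labelled by the Affymetrix 3' IVT Express kit. The deposited values are signal intensities on a linear scale, which the authors made with MAS5 and analysed with Partek, per the submitters' processing notes, and each array's mean without the lowest and highest 2% of values was 500. Raw array files were not used here.

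Of 45101 probe sets, 64 were controls, and the platform annotation gave 34945 to 1 gene, 932 to several and 9160 to none. Gene identifiers of 34741 were matched to RefSeq, and 0 symbols needed updating. The floor of 64.1 (log2 6.00) was the median over arrays of the 40th percentile. Genes with 2 or more arrays above it were tested with limma 3.58.1 (R 4.3.3). The model had 6 coefficients, namely intercepts for the 4 combinations of tissue and tumour status, and an ACKR2 effect for tumours and another for non-tumour tissue. There were 2 residual and 4.16 prior degrees of freedom and a median SD of 0.22. The number of arrays limits the precision.

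The 10 genes and the 17 other lists were chosen with earlier results of these data known. The lists were other pan-endothelial genes, VEGF and angiopoietin ligands, co-receptors and partners, tip-cell, arterial, venous and adhesion, lymphatic, pericyte, smooth muscle, fibroblast, platelet, macrophage, leukocyte, epithelial and hypoxia genes, and checks for small intestine and colon. All 10 genes are named with every value, up to 4 called genes per list and comparison by size of difference (where none was called, up to 2 with the largest), and the 10 genes most like the mean profile. Vegfa was named as well, as the main ligand of VEGFR2. Rasip1, Ushbp1, Gja5, Sele, Glycam1 and Higd1b were below the filter, and 3 other listed genes were not analysed here. Alternatives were other floors, filters, scalings, probe set rules and models, and leaving out arrays. The procedure was tested on simulated data. Of 50 genes changed by 1 on the log2 scale it called 52% for tumours in colon and 68% for ACKR2 in tumours. Of those changed by 2 or more it called 100% in both, with 14 and 20 false calls among 13823 unchanged genes. The simulated arrays had independent noise of the fitted size, with no floor applied and no differences between pools in sex or scaling. These shares therefore do not give the power for the measured arrays.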

Additional observations from a re-analysis of the deposited data

Results flagged for a closer look

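The tumour difference of Cdh5 was below 0 in both colon pairs and above 0 in both small-intestinal pairs, and the tumour difference in colon minus that in small intestine was -1.25 on the log2 scale (limma adjusted p = 0.134). Pecam1 showed the same opposite signs, with a difference between tissues of -0.943 (limma adjusted p = 0.273). Neither difference passed the threshold, and each rests on 2 pairs of arrays per tissue. The cause was not tested.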

How the results depend on the processing

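With 1 array per group, no value here has a replicate check, the floor hides differences of Tie1 and Emcn, and signals near 64.1 cannot be ranked. Mice or replicates could not be paired, since each group was 1 pool and the labels give no replicate numbers. The pairs of arrays used above are matched by tissue and by tumour status or ACKR2 genotype alone. Through its intercepts the model also compared ACKR2 genotypes within each tissue and tumour status. Of 1636 values of the 10 genes under alternatives, 1504 kept their direction and side of the threshold, 65 lost the threshold, 13 gained it and 54 changed sign without a call. Cyclic loess, leaving out both WT or both ACKR2KO_ApcMin arrays, every alternative to the model with 1 ACKR2 effect and the difference of ACKR2 effects were chosen after seeing the data.

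Averaged tumours called 3 of the 10 genes, but 0 with a floor at the 60th percentile, no filter, or without both WT or both ACKR2KO_ApcMin arrays, and 1 with a filter on all 8 arrays or 1 ACKR2 effect. Tumours in colon called 0, but 1 with no floor other than a signal of 1, a floor at the 25th percentile, or the mean of all probe sets. Tumours in small intestine called 1, but 0 with the floor moved to either the 25th or the 60th percentile, no filter, median centring, cyclic loess, the mean of all probe sets, or without both WT or both ACKR2KO_ApcMin arrays. Colon minus small intestine in non-tumour tissue called 1, but 0 with no filter or without either pair of arrays. ACKR2 in non-tumour tissue called 0, but 1 (Plvap) with no floor other than a signal of 1, a filter on all 8 arrays, or each probe set on its own, and 4 with 1 ACKR2 effect. ACKR2 in tumours called 0, but 4 with 1 ACKR2 effect.

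That model with 1 ACKR2 effect called 4, but 2 after quantile normalization, 1 after median centring or cyclic loess, and 0 without both WT or both ACKR2KO_ApcMin arrays. Leaving out each array in turn gave 0 called in every comparison, by limma, with an unadjusted p under 0.05 for 1 to 7 of the 10 genes for ACKR2 in tumours (9.23% to 14.5% of all genes) and 2 to 5 for ACKR2 in non-tumour tissue (9.56% to 24.4%) and for averaged tumours (22% to 37.7%). Other comparisons kept 0 called. Of 62 listed genes called in averaged tumours, 62, 59 and 61 were called in the same direction after quantile, median and loess scaling. The cause of these changes was not tested, except that leaving out an array or both of a genotype leaves fewer residual degrees of freedom.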

Other observations

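Lists of other cells and responses were measured on the same arrays. In tumours minus non-tumour tissue, hypoxia genes had a median log2 difference of 0.46 with 5 of 10 called higher, among them the glucose transporter gene Slc2a1 at 1.26 ± 0.17 (limma adjusted p = 0.00581). Leukocyte genes had a median of 0.83 with 3 of 4 called higher, and the B cell gene Ms4a1 was at 4.61 in small intestine and -1.61 in colon (adjusted p = 0.00415 and 0.0247), with a called difference between tissues of -6.22 (adjusted p = 0.00981). Macrophage genes had 0.26 with 3 of 7 called higher, platelet genes -0.12 with 0 of 6 called, epithelial genes -0.11 with 1 of 7 called higher, and fibroblast genes -0.23 with 3 of 8 called lower.

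For ACKR2 in non-tumour tissue, hypoxia genes had a median of 0.44 with 9 of 10 above 0, and Bnip3, a mitophagy gene that hypoxia induces, was called at 1.26 ± 0.17 (limma adjusted p = 0.0464), and was not called after quantile normalization or cyclic loess (adjusted p = 0.0574 and 0.0674). In tumours the hypoxia median was 0.03 and Bnip3 was at 0.19 (adjusted p = 0.612). Platelet genes had -0.14 in tumours and -0.27 in non-tumour tissue, and leukocyte genes 0.03 in tumours and -0.98 in non-tumour tissue, with 0 called in either. Between tissues the platelet genes Ppbp and Pf4 were higher in non-tumour colon by 3.64 and 1.96 (adjusted p = 0.00129 and 0.0104). Of the tissue checks, colon genes had a median of -1.58 in tumours minus non-tumour tissue with 3 of 5 called lower, and small-intestinal genes -0.18 with 1 of 7 called higher and 1 lower.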
